A study of Mus musculus with 4 samples.

Results

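The imprinted growth network genes are 10 mouse genes, named by their symbols. They are H19, Igf2, Cdkn1c, Plagl1, Dlk1, Rian, Meg3, Grb10, Mest and Igf2r. The genes were selected on measured values, because several were higher with the Sox12 vector, so their levels in that comparison describe the choice and no claim rests on them. All 10 have a row among the 23284 rows of the table of transduced T cells, and 3 of the 10 (Grb10, Mest and Igf2r) have a row among the 10679 rows of the table of regulatory T cells. RNA was sequenced from 4 libraries in 4 groups, with 1 library per group. In the vector experiment naive CD4 T cells from C57BL6 mice of wild-type genotype carried either a vector with Sox12, which encodes a SoxC transcription factor, or a mock vector. In the DSS experiment regulatory T cells (Treg), the T cells that restrain immune responses, came from the spleen of Balb/c mice of the Foxp3-hCD2 reporter strain, in which Foxp3-expressing cells display human CD2, and were purified by that marker. The mice of the treated group drank 3% dextran sulfate sodium (DSS), a polymer that injures the colon, for 7 days, and the other mice were untreated. The backbone and promoter of the vector, the time after transduction, any sort of the transduced cells and the number of animals behind a library are not given in the labels. With 1 library per group no difference has a replicate check, and none was tested.

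An imprinted gene is read mainly from the copy of one parent, because marks laid down in the egg or sperm keep the other copy quiet. In mouse tissues Igf2, Plagl1, Dlk1 and Mest are mainly read from the paternal copy, and H19, Cdkn1c, Meg3, Rian, Igf2r and, outside neurons, Grb10 from the maternal copy. Most paternally read members promote fetal growth and most maternally read ones restrain it, and many are high in the fetus and fall after birth. H19, Igf2 and Cdkn1c are also known from blood stem cells. A value per gene does not separate the parental copies, so the levels say nothing of imprinting itself.

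The start regions of the members are shown because the vector carries a transcription factor, and because their base composition differs widely. RefSeq windows from 250 bases before to 50 bases after each start were at hand for 8 of the 10 members, with 15 windows in all, and not for H19 and Cdkn1c. They were searched on both strands for short cores that Sox factors are known to bind. The core ACAAAG is held by 18.7% of all 32851 windows. The core ACAATG is held by 12.6%. The wider form AACAAT is held by 10.7%, and any of these by 33.2%. Of the 15 member windows 1 holds any. It belongs to 1 of the starts of Igf2, and its match begins at position 195 of the window, counted from its 5′ end. The match, in capitals, holds the second and the wider form on the opposite strand, where they overlap. The window lies at chr7:142661222-142661521 on the minus strand of GRCm38.p6 and is printed 5′ to 3′ along the gene.
Igf2: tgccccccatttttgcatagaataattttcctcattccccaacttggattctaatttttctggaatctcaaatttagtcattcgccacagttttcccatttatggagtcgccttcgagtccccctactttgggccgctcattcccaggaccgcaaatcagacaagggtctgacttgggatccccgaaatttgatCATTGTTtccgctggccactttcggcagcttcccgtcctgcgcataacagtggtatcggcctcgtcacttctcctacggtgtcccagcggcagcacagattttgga
A match is a description of the letters, not a site. The next windows are shown for their content of CpG, a C followed by a G, which carries DNA methylation and is printed in capitals. They are those of Plagl1 at chr10:13090582-13090881, Dlk1 at chr12:109452573-109452872 and Rian at chr12:109603695-109603994, all on the plus strand of GRCm38.p6.
Plagl1: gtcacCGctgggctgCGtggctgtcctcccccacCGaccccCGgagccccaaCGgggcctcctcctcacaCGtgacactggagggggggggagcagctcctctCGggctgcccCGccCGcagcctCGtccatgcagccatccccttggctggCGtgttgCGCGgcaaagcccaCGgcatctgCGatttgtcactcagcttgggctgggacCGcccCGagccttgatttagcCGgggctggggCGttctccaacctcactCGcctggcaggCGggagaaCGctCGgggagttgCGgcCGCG
Dlk1: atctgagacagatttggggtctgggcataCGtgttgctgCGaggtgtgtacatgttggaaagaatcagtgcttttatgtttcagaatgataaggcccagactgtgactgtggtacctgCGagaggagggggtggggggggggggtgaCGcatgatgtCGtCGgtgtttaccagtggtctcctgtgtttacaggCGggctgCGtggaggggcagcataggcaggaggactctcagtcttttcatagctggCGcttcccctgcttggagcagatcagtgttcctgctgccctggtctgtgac
Rian: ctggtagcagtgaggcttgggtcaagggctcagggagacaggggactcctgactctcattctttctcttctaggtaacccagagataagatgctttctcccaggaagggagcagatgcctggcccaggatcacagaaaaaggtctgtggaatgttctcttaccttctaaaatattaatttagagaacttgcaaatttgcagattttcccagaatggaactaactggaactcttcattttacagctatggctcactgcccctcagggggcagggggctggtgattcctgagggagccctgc
The Plagl1 window holds 26 CpG at 70.7% G and C, the Dlk1 window 9 at 55.7% and the Rian window 0 at 49.3%. The member windows range between 0 and 45 CpG, with a median of 13 against 7 for all windows, and the highest is 1 of the starts of Grb10. Plagl1 and Rian were both higher with the Sox12 vector, but that contrast chose the members, so no link to CpG content is read. The H19 transcript is also the precursor of a miRNA pair, shown here because H19 had the highest level of all members with the Sox12 vector. Its mature forms, from RefSeq on the minus strand of GRCm38.p6 at chr7:142577112-142577133 and chr7:142577078-142577099, have different seeds (bases 2 to 8, in capitals).
mmu-miR-675-5p: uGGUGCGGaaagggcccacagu
mmu-miR-675-3p: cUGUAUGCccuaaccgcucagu
The row of their gene, Mir675, lay at or below 0.01 FPKM in both vector libraries, and libraries of this kind do not measure mature miRNAs.

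Levels are in FPKM, fragment numbers scaled by transcript length and by the size of the library, and can be compared between genes because they are per length. A change is the Sox12 vector minus the mock vector on the log2(FPKM + 1) scale, and it understates the change of low genes. A gene passes the filter when its 2 libraries average 1 FPKM or more, and passes the size rule with a change of 1 or more in either direction. With the vectors 10822 genes passed the filter, with a median change of -0.01. By the size rule 525 of them were higher (4.85%) and 207 lower (1.91%). In value 48.9% were higher with the Sox12 vector, beside which the counts of the lists below stand. From the low values of that table, 1 FPKM rested on about 45.1 fragments per kb with the Sox12 vector and 42.3 with the mock vector, and counting intervals (95%, exact, for a transcript taken as 2 kb) follow from it. They cover counting error only. Sox12 itself had 829 FPKM with the Sox12 vector, against 1.56 FPKM with the mock vector. Foxp3, the lineage factor of Treg, had 127 and 20.9 FPKM in the same order.

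With the Sox12 vector all 10 members had a higher value than with the mock vector, and the sizes ranged widely. The lowest ratio was 1.35 (Mest) and the highest 329 (Igf2). Of the 10 members 7 passed the filter and 3 (Grb10, Mest and Meg3) did not. By the size rule 6 were higher and 0 lower, where 4.85% and 1.91% of all genes were. Since this contrast chose the members, nothing is read from that count. The counting interval of the ratio lay above 1 for 9 members, the exception being Mest. Such an interval covers counting error only, and the share of all genes with one above 1 was not worked out. Nothing is read from this count either. The summed level of the members was 269 FPKM with the Sox12 vector and 37.2 FPKM with the mock vector. H19 made up 66.8% of that sum with the Sox12 vector and 24.5% with the mock vector, and Igf2r made up 14.5% and 67.2% of it.

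**Figure D1:**
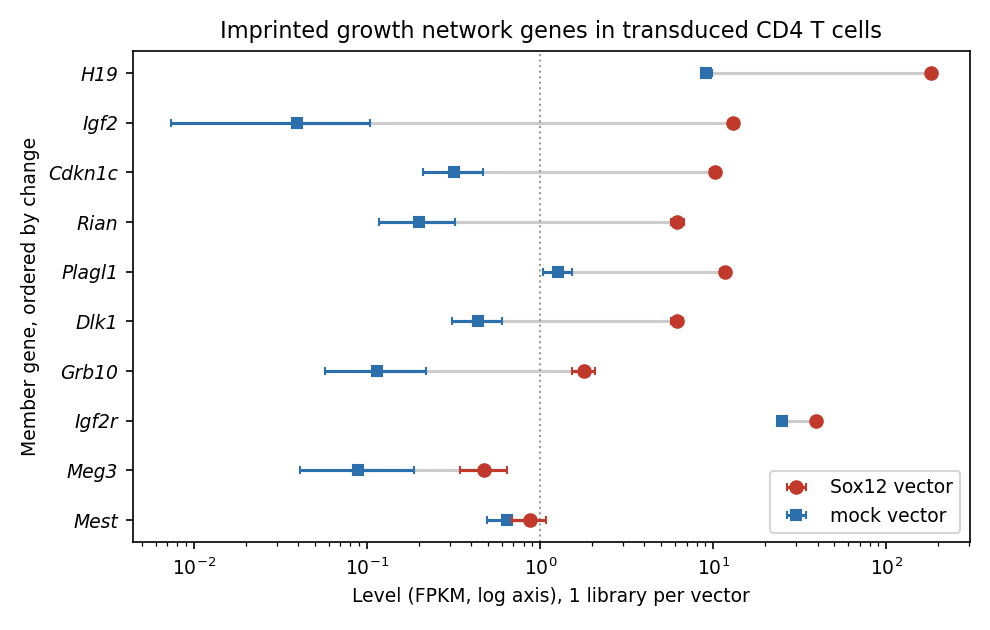
Level of each member in the vector experiment, in FPKM on a log axis, with the Sox12 vector as circles and the mock vector as squares, 1 library each. Bars are 95% counting intervals for a transcript taken as 2 kb, the dotted line marks 1 FPKM, and every circle lies right of its square, with overlapping bars in Mest alone.

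The growth factor of the group, Igf2, encodes insulin-like growth factor 2, which drives fetal growth through the IGF1 receptor and the insulin receptor. It had 13.03 FPKM with the Sox12 vector, against 0.0395 FPKM with the mock vector, a change of 3.75. For a transcript of 2 kb this is about 1175 fragments against 3, so its ratio of 329 has a counting interval of 125 to 1784. Igf2 was thus the lowest member with the mock vector and the third highest with the Sox12 vector. Dlk1, a membrane protein related to the Notch ligands that holds back adipocyte differentiation, had 6.17 FPKM with the Sox12 vector and 0.435 FPKM with the mock vector. Its ratio was 14.2 (10.1 to 20.2) and its change 2.32. Dlk1 was below 1 FPKM with the mock vector, as were 7 members in all.

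Igf2r is the receptor that carries IGF2 to the lysosome, where it is broken down, and it also sorts lysosomal enzymes. It had 39.1 FPKM with the Sox12 vector and 25.0 FPKM with the mock vector, a ratio of 1.56 (1.48 to 1.65) and a change of 0.63. Igf2r was the 1 member past the filter that did not reach the size rule. It stood 998 from the top among the changes of the 10822 genes. The level of Igf2r was 3.00 times that of Igf2 with the Sox12 vector and 631 times with the mock vector. Grb10, an adaptor that binds the insulin and IGF1 receptors and dampens their signal, had 1.78 FPKM with the Sox12 vector and 0.114 FPKM with the mock vector. Its ratio was 15.6 (8.0 to 32.1) and its change 1.32, but its mean of 0.947 FPKM lay just below the filter. By ratio alone Grb10 stood between Dlk1 and H19.

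Cdkn1c encodes p57, an inhibitor of cyclin-dependent kinases that stops the cell cycle and is known to keep blood stem cells at rest. It had 10.2 FPKM with the Sox12 vector and 0.318 FPKM with the mock vector, a ratio of 32.2 (21.9 to 49.0) and a change of 3.09. Plagl1 encodes a zinc finger transcription factor, also called Zac1, that slows the growth of cultured cells. In mouse it is known to act on other imprinted genes. It had 11.7 FPKM with the Sox12 vector and 1.26 FPKM with the mock vector, with a ratio of 9.23 (7.55 to 11.3) and a change of 2.48. Cdkn1c had the higher ratio and Plagl1 the higher level in each library.

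Long non-coding RNAs made up the highest and the lowest levels with the Sox12 vector. H19, which is spliced, stays untranslated and shares enhancers with Igf2, had 180 FPKM with the Sox12 vector and 9.10 FPKM with the mock vector. The ratio was 19.8 (18.4 to 21.3) and the change 4.16, which stood 23 from the top. In order of level among the rows of the table, H19 stood at 314 with the Sox12 vector and at 6522 with the mock vector. It was the 1 member other than Igf2r and Plagl1 above 1 FPKM with the mock vector. Rian, which hosts small nucleolar RNAs, had 6.19 FPKM with the Sox12 vector and 0.199 FPKM with the mock vector, with a ratio of 31.1 (19.1 to 53.2) and a change of 2.58. Meg3, its neighbour on chromosome 12, had 0.475 FPKM with the Sox12 vector and 0.0887 FPKM with the mock vector, with a ratio of 5.35 (2.34 to 12.4) and a change of 0.44. Meg3 and Rian are thought to belong to 1 long transcription unit. The level of Rian was above that of Meg3 with the Sox12 vector, while their counting intervals overlapped with the mock vector. Mest, which encodes a protein of the hydrolase family, had 0.870 FPKM with the Sox12 vector and 0.645 FPKM with the mock vector. Its ratio of 1.35 has a counting interval of 0.930 to 1.91, which includes 1 for a transcript taken as 2 kb. A longer transcript would give a narrower interval.

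**Figure D2:**
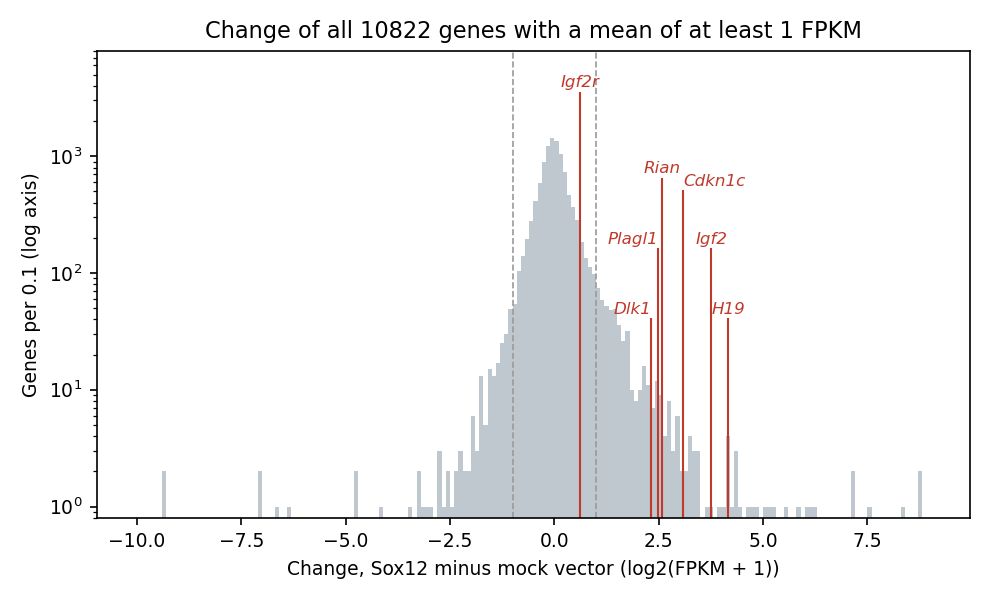
Changes of all 10822 genes past the filter in the vector experiment, Sox12 minus mock vector on the log2(FPKM + 1) scale, as the number of genes per bin on a log axis. Lines mark the 7 members past the filter (their heights carry no value) and dashed lines the size rule; Igf2r at 0.63 lies inside it and Dlk1 at 2.32 to H19 at 4.16 lie outside.

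The order of levels with the Sox12 vector was H19, Igf2r, Igf2, Plagl1, Cdkn1c, Rian, Dlk1, Grb10, Mest and Meg3. Of the 9 pairs of neighbours in that order 2 had overlapping counting intervals, Igf2 with Plagl1 and Rian with Dlk1. With the mock vector the order was Igf2r, H19, Plagl1, Mest, Dlk1, Cdkn1c, Rian, Grb10, Meg3 and Igf2, and 6 of the 9 pairs overlapped, all at or below Mest. H19 stood 7 from the top in order of change among 7662 named genes averaging 5 FPKM or more. Rows with the symbol of a predicted gene, a clone, a pseudogene or a small RNA were left out of that order. Next above it were Tmem98 (5.53), Dbn1 (5.03), which encodes the actin-binding drebrin, and Mex3a (4.29), which encodes an RNA-binding protein. Next below were Snn (4.14), the granzyme gene Gzma (4.12) and the neuronal tubulin gene Tubb3 (4.03). None of these 6 is in the lists of imprinted genes used here.

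Imprinted genes lie in clusters, so the 6 genes on each side of every member were read in the order of the RefSeq assembly GRCm38.p6, a choice made after the data were seen. Counted once each there were 85 such neighbours, of which 38 passed the filter, 3 were higher and 1 was lower by the size rule, where 4.85% and 1.91% of all genes were, with a median change of -0.08. Beside H19 and Igf2 on chromosome 7, 4 of 12 neighbours passed the filter. Mrpl23, a gene of the mitochondrial ribosome near H19, had 44.2 FPKM with the Sox12 vector and 53.6 FPKM with the mock vector. Lsp1, an actin-binding protein of leukocytes, had 212 and 277 FPKM in the same order. Cd81, a tetraspanin at the far side, had 86.2 FPKM with the Sox12 vector and 176 FPKM with the mock vector, a change of -1.02, and Ins2 and Th were listed at 0 in both. The 4 neighbours past the filter at this locus were all lower in value, where 48.9% of all genes past the filter were higher. H19 and Igf2 were chosen in this contrast, so nothing is read from their opposite direction.

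Beside Cdkn1c, also on chromosome 7, 7 of 12 neighbours passed the filter. The organic cation transporter gene Slc22a18 had 1.87 FPKM with the Sox12 vector and 0.133 FPKM with the mock vector (change 1.34), and Tnfrsf26, of the TNF receptor family, had 12.5 and 4.39 FPKM (change 1.32). Phlda2, an imprinted gene that restrains placental growth, had 0.0387 FPKM with the Sox12 vector and 0.0406 FPKM with the mock vector. Kcnq1ot1, the long RNA that silences this cluster in cis, had 0.0548 and 0.0408 FPKM. By the size rule Cdkn1c, Slc22a18 and Tnfrsf26 were thus higher at this locus and Cd81, which it shares with the one before, was lower, with Phlda2 and Kcnq1ot1 near 0.

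In the cluster of Dlk1, Meg3 and Rian on chromosome 12, 5 of 14 neighbours passed the filter and 0 of them the size rule. Mirg, a long RNA that hosts miRNAs in the same cluster, had 0.849 FPKM with the Sox12 vector and 0.0198 FPKM with the mock vector, about 77 and 2 fragments for a transcript of 2 kb. The paternally read Rtl1 had 0.0293 and 0.0612 FPKM, and Dio3, an enzyme that inactivates thyroid hormone, had 0.0745 and 0.0130 FPKM. Dlk1 thus stood alone among the protein-coding genes of the cluster above 1 FPKM with the Sox12 vector that are known as imprinted. Beside Plagl1 on chromosome 10, 10 of 12 neighbours passed the filter and 0 the size rule. Stx11, a syntaxin of cytotoxic granule release, was furthest from 0 among them, with 22.2 FPKM with the Sox12 vector and 41.0 FPKM with the mock vector.

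Beside Grb10 on chromosome 11, Ddc, which encodes aromatic amino acid decarboxylase and is imprinted in heart, had 3.73 FPKM with the Sox12 vector and 0.952 FPKM with the mock vector (change 1.28). Ikzf1, the lymphoid factor Ikaros, had 97.1 and 85.0 FPKM. Beside Mest on chromosome 6, Copg2, which overlaps Mest on the opposite strand, had 13.2 FPKM with the Sox12 vector and 17.7 FPKM with the mock vector. Airn, the antisense RNA that silences the paternal Igf2r, had 2.61 FPKM with the Sox12 vector and 1.18 FPKM with the mock vector (change 0.73). The libraries keep strand, but its use in the quantification is not given in the sources used here, so reads of Airn and Igf2r, or of Copg2 and Mest, may not have been told apart.

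**Figure D3:**
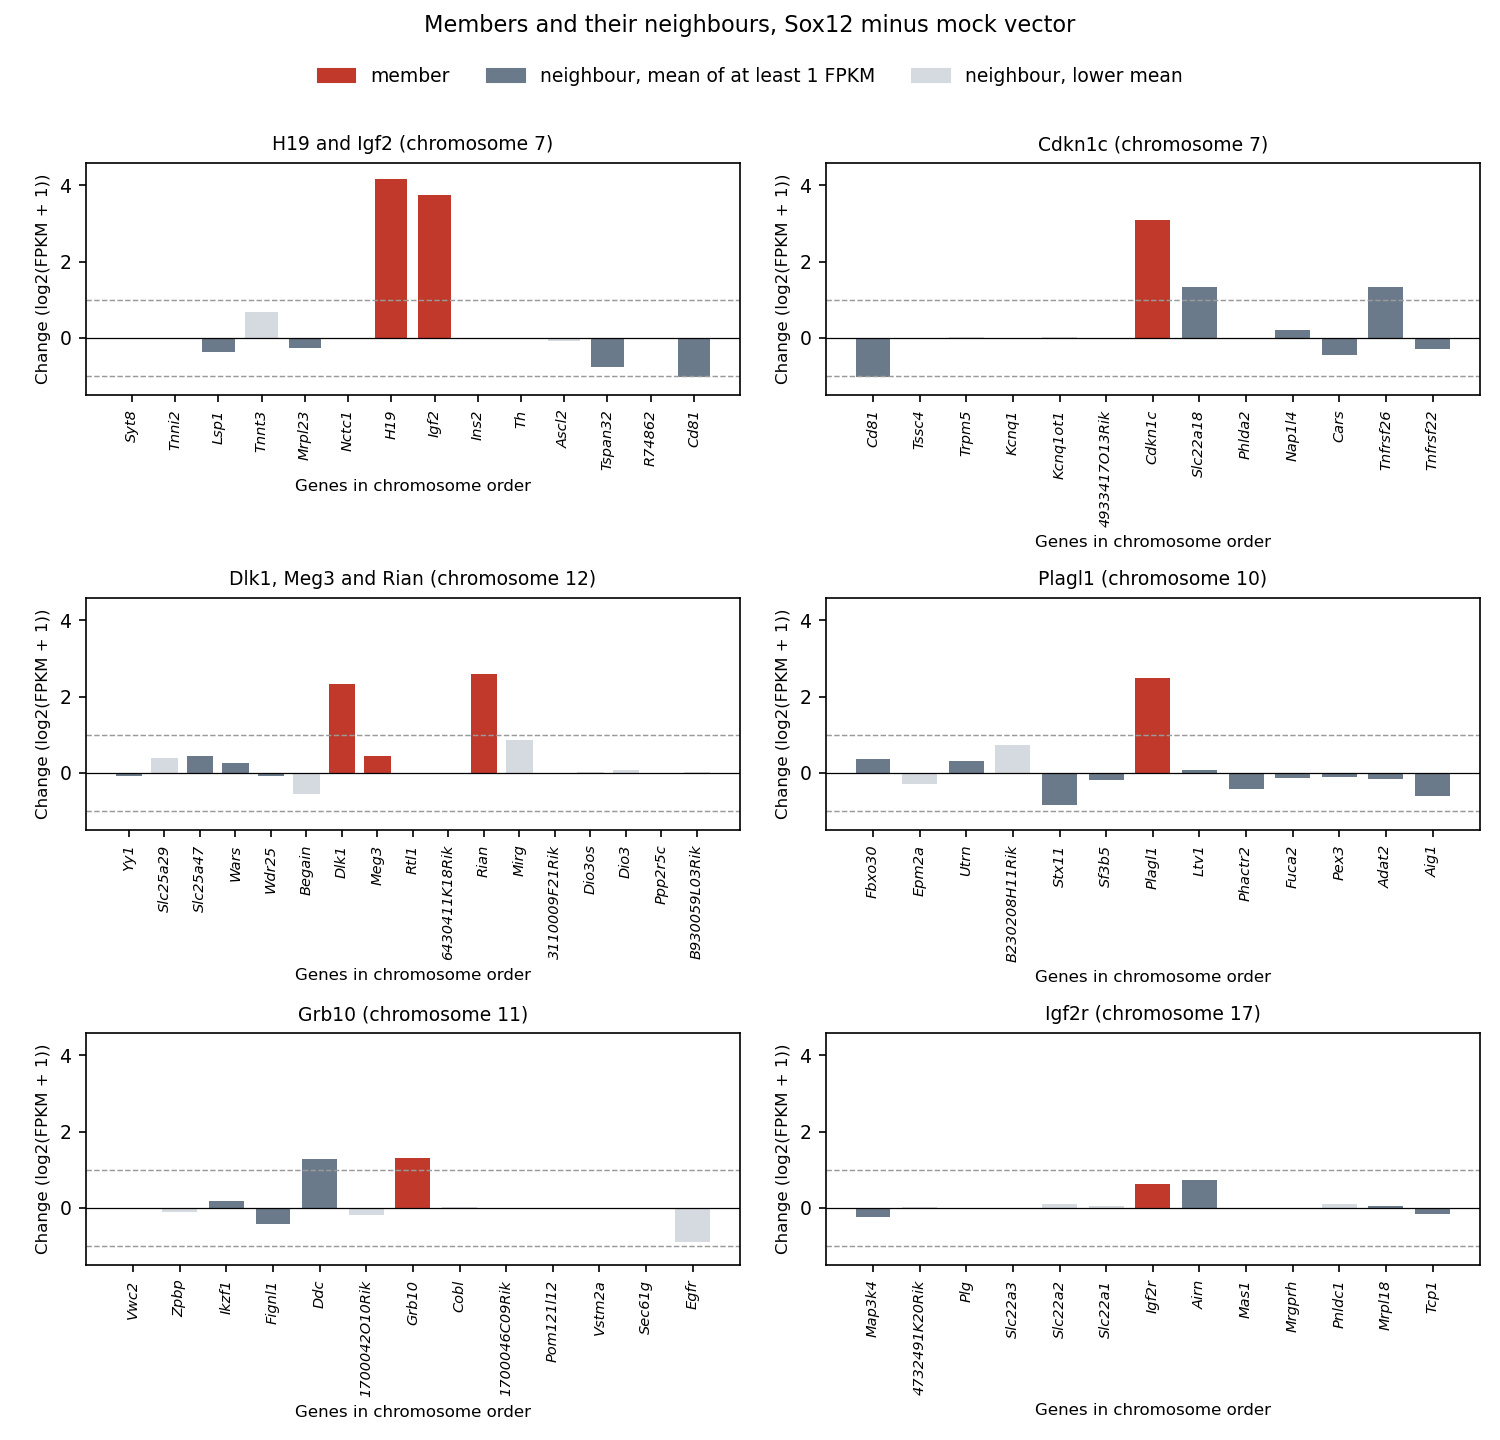
Change, Sox12 minus mock vector on the log2(FPKM + 1) scale, of the members and their neighbours in chromosome order at 6 of the 7 loci (the Mest locus is not drawn). Dashed lines mark the size rule; the bars of H19, Igf2, Cdkn1c, Dlk1, Rian, Plagl1 and Grb10 pass it, and of the neighbours Slc22a18, Tnfrsf26 and Ddc above and Cd81 below.

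Of 58 other imprinted genes listed, 56 were in the vector table and 23 passed the filter, 11 with a higher and 12 with a lower value with the Sox12 vector. Their median change was -0.04, against -0.01 for all genes. By the size rule 2 were higher, Slc22a18 and Ddc, and 2 lower, Cd81 and Gatm, where 4.85% and 1.91% of all genes were. With a pseudocount of 5 none of the 4 passed. Gatm, which makes the precursor of creatine, had 2.24 FPKM with the Sox12 vector and 5.98 FPKM with the mock vector, a change of -1.11.

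The IGF and insulin axis, with ligands, receptors, substrates and binding proteins, had 8 of 17 genes past the filter, 2 higher and 6 lower in value, with a median of -0.14. By the size rule 1 was higher and 1 lower, both of them binding proteins, where 4.85% and 1.91% of all genes were. Igfbp4, which holds IGF away from its receptor, had 347 FPKM with the Sox12 vector and 74.3 FPKM with the mock vector, a change of 2.21. Igfbp7, a low-affinity relative, had 15.4 FPKM with the Sox12 vector and 81.2 FPKM with the mock vector, a change of -2.32. Both pass the size rule, in opposite directions.

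Of 7 paralogs of the members 3 passed the filter, 1 higher and 2 lower in value, with a median of -0.22 and 0 past the size rule. The relatives of Cdkn1c, Cdkn1a (p21) and Cdkn1b (p27), had 119 and 39.2 FPKM with the Sox12 vector, against 138 and 25.1 FPKM with the mock vector. Cdkn1b was picked after its values were seen. Plagl2, the relative of Plagl1, had 42.8 FPKM with the Sox12 vector and 52.5 FPKM with the mock vector. Of 15 genes that set or keep imprints, such as DNA methyltransferases, 10 passed the filter, with a median of 0.15 and 0 past the size rule. Of the 10, 9 had a higher and 1 a lower value, where 48.9% of all genes past the filter were higher. Trim28, a corepressor that guards imprints, had 135 FPKM with the Sox12 vector and 112 FPKM with the mock vector. The maintenance methyltransferase Dnmt1 had 115 and 107 FPKM. Picked after their values were seen, the de novo methyltransferase Dnmt3b had 6.85 and 3.06 FPKM (change 0.95), and Zfp57, the zinc finger protein that brings Trim28 to imprinted regions, had 1.10 and 0.0287 FPKM, below the filter. Of 9 genes of the fetal programme 2 passed the filter, both lower in value. Igf2bp3, a fetal RNA-binding protein that binds Igf2 mRNA, had 8.01 FPKM with the Sox12 vector and 8.93 FPKM with the mock vector. Sox4, a SoxC relative of Sox12, had 1.25 and 1.76 FPKM.

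**Figure D4:**
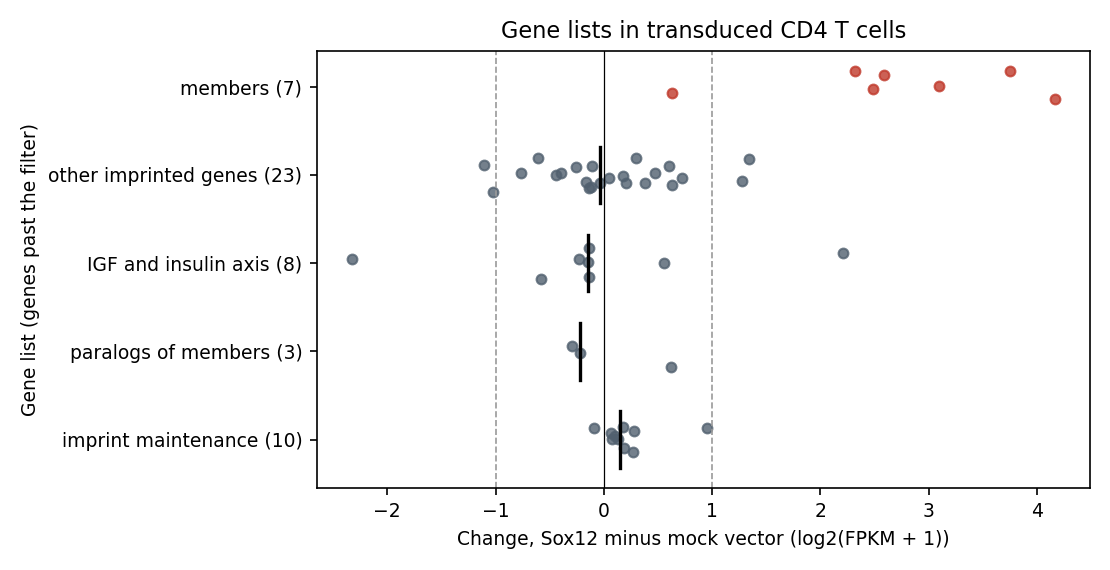
Change of each gene past the filter, Sox12 minus mock vector on the log2(FPKM + 1) scale, in the members (no median drawn, as they were selected on these values) and in 4 of the lists, with vertical bars at their medians and dashed lines at the size rule. The medians of the 4 lists lie between -0.22 and 0.15, and vertical scatter within a list carries no value.

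Markers of cell types were read beside these values, since in bulk RNA fewer cells of a type and less RNA per cell cannot be told apart. T cell markers were present in both libraries. They summed to 1399 FPKM with the Sox12 vector and 1971 FPKM with the mock vector. In value 7 of 7 were lower, where 48.9% of all genes past the filter were higher. Of these Cd5 was lower by the size rule, with 81.7 FPKM with the Sox12 vector and 189 FPKM with the mock vector, a change of -1.20. Treg markers summed to 869 and 839 FPKM, in the same order, 2 higher and 2 lower in value. Foxp3 was higher by the size rule, while Il2ra (568 and 629 FPKM) and Ctla4 (155 and 177 FPKM) were lower in value. Fibroblast and stroma markers, a cell type with high H19, Igf2 and Dlk1 in the fetus, summed to 1.89 and 1.71 FPKM over 10 genes, with Col3a1 and Postn listed at 0 in both and Lum highest at 1.27 and 1.35 FPKM. Those markers were thus near 0 in both libraries. NK and CD8 T cell markers summed to 235 FPKM with the Sox12 vector and 87.5 FPKM with the mock vector, 5 of 5 higher and 3 (Cd8a, Klrb1c and Nkg7) by the size rule, where 4.85% of all genes were. Of the progenitor markers Kit, the stem cell factor receptor, had 11.6 FPKM with the Sox12 vector and 0.890 FPKM with the mock vector. Cd34 (0.00913 and 0.00958 FPKM), Flt3 (0.0419 and 0.0815 FPKM) and Gata2 (0.0476 and 0.0570 FPKM) were near 0 and lower in value. Mecom was listed at 0 in both, and the sum of the 5, 11.7 and 1.04 FPKM, was mostly Kit. Erythroid markers summed to 13.7 and 49.0 FPKM, and most of that difference was Hbb-b1, with 9.27 and 46.6 FPKM. Hbb-b1 was lower by the size rule (change -2.21), while Hba-a1 was higher in value, with 4.23 and 1.74 FPKM (change 0.93). B cell markers summed to 2.57 and 2.01 FPKM and myeloid markers to 0.551 and 0.313 FPKM. The part of any of these in the members' values was not tested.

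In the DSS experiment Grb10, Mest and Igf2r were listed, and the other 7 members have no row among those used here, which hold genes above 1 FPKM in at least 1 library. By the size rule 20 of 10545 genes were higher (0.190%) and 8 lower (0.0759%) in DSS Treg, and of the 3 members 0 were either. The median change of all genes was 0.05. Grb10 had 1.46 FPKM in DSS Treg and 1.10 FPKM in untreated Treg, a ratio of 1.32 and a change of 0.22. Mest had 1.05 FPKM in DSS Treg and 1.07 FPKM in untreated Treg, a change of -0.01. Igf2r had 28.3 FPKM in DSS Treg and 30.2 FPKM in untreated Treg, a ratio of 0.935 and a change of -0.09. Grb10 was thus higher in value and the others lower, all by less than the size rule. Counting intervals cannot be given, because the depth of these libraries is unknown. Sox12 had 1.52 FPKM in DSS Treg and 0.715 FPKM in untreated Treg.

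Igf2r was the highest of the 3 in all 4 libraries, and Grb10 the next in both Treg libraries and with the Sox12 vector. The tables were made separately, so their levels are set side by side without a comparison. Of the 58 other imprinted genes 22 were listed, 17 higher and 5 lower in value in DSS Treg, with a median of 0.07 and 0 past the size rule. Among all genes past the filter, 66.1% were also higher in value in DSS Treg, beside which this count and those of the next lists stand. Gnas, which encodes the G protein that raises cAMP and is imprinted in some tissues, had 304 FPKM in DSS Treg and 294 FPKM in untreated Treg. Tspan32, a tetraspanin of blood cells, had 93.6 FPKM in DSS Treg and 98.7 FPKM in untreated Treg. The IGF axis had 6 listed genes, 4 higher and 2 lower, and 0 past the size rule. M6pr, the other mannose 6-phosphate receptor beside Igf2r, had 81.2 FPKM in DSS Treg and 76.1 FPKM in untreated Treg, and Igfbp4 had 58.4 and 89.9 FPKM. Of the paralogs 3 of 3 were higher in value, with Cdkn1b at 125 and 114 FPKM and Plagl2 at 21.7 and 21.0 FPKM. Genes that keep imprints had 6 higher and 5 lower, with Trim28 at 68.0 and 66.4 FPKM and Ctcf, the insulator protein of the H19 and Igf2 locus, at 67.1 and 65.8 FPKM. Of the fetal programme Sox4 alone was listed, with 3.92 and 4.18 FPKM. T cell markers summed to 2111 FPKM in DSS Treg and 2143 FPKM in untreated Treg, and Treg markers to 355 and 360.5 FPKM. Erythroid markers summed to 591 FPKM in DSS Treg and 384 FPKM in untreated Treg, 5 of 5 higher and Hbb-b2 by the size rule, and progenitor markers to 6.36 and 4.17 FPKM. B cell markers summed to 9.15 and 8.67 FPKM, myeloid markers to 6.36 and 8.30 FPKM and NK and CD8 markers to 21.4 and 24.7 FPKM, with no stroma marker among the rows used. Their part in the members' values was not tested.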

How the data were processed

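Strand-specific libraries were made from total RNA with a SureSelect kit, per the labels' protocols. Cufflinks and the build mm9 are named in the submitters' processing notes, without their role. The aligner, the gene models and whether strand was used are not given in the sources consulted. The authors deposited linear FPKM for the DSS experiment, with a fold change that is the ratio of DSS to untreated. For the vector experiment the deposited values are log2(FPKM + 1), a scale read from the values, and were turned back to FPKM. FPKM does not keep counts, so no count test was run. Levels of genes that overlap on a chromosome are uncertain, since how shared reads were assigned is not recorded in the labels.

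Each library was its own group, by its title, and libraries were compared only inside a table. Columns of other samples numbered 0. Rows whose names had become dates were left out, 25 in the vector table and 16 in the DSS table (at most 0.263% of the FPKM). A change is a difference of log2(FPKM + 1) with a pseudocount of 1. The filter is a 2-library mean of 1 FPKM or more, and the size rule is a change of 1 or more in either direction. Fragments per kb were sought in the low values of the vector table with transcript lengths of GENCODE vM21, among 347 genes with the Sox12 vector and 298 with the mock vector, of which 27 and 21 lay at the most frequent value. They rest on few genes.

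The members and the lists were chosen with earlier results of these data known. The naming rule takes all members, and up to 8 genes past the size rule of each gene list or else its 2 with the highest mean. Cell type markers are a separate list, given by their sums. The single markers named beside the sums follow no rule set in advance. The rule also takes the 3 named genes on each side of H19 in order of change, without predicted, clone, pseudogene and small RNA symbols. Promoter and miRNA sequences are from RefSeq, and chromosomes and gene order from the same assembly. Alternatives were other pseudocounts, filters and scalings, 7 in all. Python 3.11.15, numpy 2.4.6, pandas 2.3.3, scipy 1.17.1 and matplotlib 3.10.9 were used.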

Additional observations from a re-analysis of the deposited data

How the results depend on the processing

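Over 7 alternatives (pseudocounts of 0.1 and 5, no filter, a mean of at least 5 FPKM, and 3 scalings) the 10 members gave 70 changes in the vector experiment, of which 0 had another sign than the values above. Of these, 2 crossed the size rule, Grb10 at 0.41 with a pseudocount of 5 and Meg3 at 1.61 with a pseudocount of 0.1. The change of H19 ranged between 3.71 and 4.29, that of Igf2 between 1.84 and 6.56 and that of Igf2r between 0.56 and 0.68. The 3 members of the DSS experiment gave 21 changes, also with 0 of another sign. A pseudocount or a filter cannot turn the sign of a change. In both experiments only the 3 scalings could have done so, and little is read from the unchanged signs. The count of 6 members higher was 7 without the filter and 4 with a 5 FPKM filter. The 4 other imprinted genes past the size rule became 6 with a pseudocount of 0.1, 0 with a pseudocount of 5, 1 with a 5 FPKM filter and 3 with totals made equal without the 20 highest genes, and were 4 under the other alternatives. Of all genes in the vector experiment 525 were higher and 207 lower. With a pseudocount of 0.1, 682 were higher and 335 lower, and with a pseudocount of 5, 222 were higher and 94 lower. With a 5 FPKM filter, 322 were higher and 139 lower. In the DSS experiment 20 genes were higher and 8 lower, against 39 and 20 with a pseudocount of 0.1, 6 and 3 with a pseudocount of 5, and 8 and 2 with a 5 FPKM filter. No paired analysis was possible because each group holds 1 library and the labels carry no replicate numbers. For the same reason no library could be left out. Levels with the mock vector rest on few fragments in Igf2, Meg3 and Grb10.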

Other observations

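Some rows outside the lists were seen beside the members, and were chosen after their values were seen. B230208H11Rik, a locus near Plagl1, had 0.653 FPKM with the Sox12 vector and 0.00350 FPKM with the mock vector. Podxl, which encodes a sialomucin of blood progenitors and vessels and lies near Mest, had 1.73 FPKM with the Sox12 vector and 0.0760 FPKM with the mock vector, and its mean was below the filter. Of 60 small RNA rows between Meg3 and Mirg, 2 were above 0.01 FPKM with the Sox12 vector and 0 with the mock vector. Mir432 had 19.3 FPKM and Mir3072 had 25.7 FPKM with the Sox12 vector, and both were listed at 0 with the mock vector. Their short transcripts make FPKM of these rows rest on few fragments.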
